A study of Mus musculus with 4 samples.

Results

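The Hox genes were taken as every probe, control spots aside, whose gene name in the scanner files is a Hox cluster letter followed by a paralog number. That rule gave 44 of the 55681 probes and 39 of the 22221 named genes: 11 genes of cluster a, 10 of cluster b, 9 of cluster c and 9 of cluster d. The RNA came from Sca-1+ cardiac mesenchymal progenitors (CMPs) of adult C57BL/6 mice, atrial cells grown with serum and bFGF. Untreated CMPs, taken here as day 0, were the CMP control. CMPs transduced with Sendai virus carrying Oct4, Sox2, Klf4 and c-Myc (OSKM-CMPs) were taken at days 4, 6 and 8. They were kept in a reprogramming medium without leukemia inhibitory factor. Each condition had 1 single-colour Agilent array and therefore no replicate, so a difference between arrays has no p-value and was read by its size. The control stood for day 0 by this reading only, and the medium in which it was kept at harvest is not given in the sources used here. Virus, factors, medium and time in culture therefore cannot be told apart, and the 3 comparisons with the control share its array.

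Hox proteins are transcription factors that bind DNA through a homeodomain and give cells an address along the body axis. Their genes lie in 4 clusters, and the order of the genes on the chromosome matches where they act: low paralog numbers, at the 3' end of a cluster, are used in anterior tissue such as the hindbrain and the pharyngeal region, and high numbers in the trunk, the limbs and the tail. Retinoic acid switches on the 3' genes in the embryo, Polycomb proteins hold unused genes silent, and TALE homeodomain proteins of the Pbx and Meis families bind DNA beside Hox proteins. In the heart, anterior genes such as Hoxb1 and Hoxa3 mark progenitors that build the atria and the outflow tract, and adult stromal cells are known to keep a Hox pattern that reflects the site they came from.

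The labelled cell type was checked against its markers. All 8 mesenchymal progenitor markers, among them Ly6a (Sca-1), and all 3 cardiac transcription factor markers were detected in the CMP control, together with 1 of 4 cardiomyocyte markers (Tnnt2). The control also detected 4 of 4 mesothelial, 4 of 4 endothelial and 5 of 6 leukocyte markers, so detection alone does not single out the labelled cell type. Detected here means that most spots of a probe carried the scanner's well-above-background flag. Between 56.6% and 59.6% of all probes were detected on an array, and no spot was saturated. Levels are log2 signals relative to the 75th percentile of the same array, where 0 is the 75th percentile, and ± is 1 SD from the scanner's error model. That error covers the spots of an array and neither cultures nor RNA preparation.

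Probes on this array are 60 bases long, and a few of the Hox probes lie in coding sequence, where they show what the proteins share. They are printed because the members of the family are near copies there, while a probe has to tell them apart. Capitals mark codons of the homeobox that encode the DNA-reading helix (in the Hoxc12 probe, its end) and, in Hoxa6, codons of the hexapeptide that contacts Pbx, both spelled with free bases where codons vary and searched on the printed strand only.
Hoxc11 probe: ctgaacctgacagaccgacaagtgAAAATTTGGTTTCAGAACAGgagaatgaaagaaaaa
Hoxc12 probe: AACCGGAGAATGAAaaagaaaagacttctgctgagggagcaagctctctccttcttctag
Hoxa6 probe: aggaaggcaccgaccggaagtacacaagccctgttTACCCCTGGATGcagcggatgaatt
Each of these reads without an internal stop codon in the frame of its capitals, and the Hoxc12 probe ends in a stop codon. The letters of the helix were found in 2 of the 44 Hox probes and 0.00898% of all probes, those of its end in 3 Hox probes and 0.0180% of all, and those of the hexapeptide in 1 Hox probe and 0.00718% of all. The letters of the helix and those of the end of the helix overlap. Over the 941 pairs of probes of different Hox genes, the longest shared run was 11 bases, between Hoxb4 and Hoxc11 and between Hoxc11 and Hoxc12. The Hoxc12 probe was detected on all 4 arrays, while the Hoxc11 probe was detected on none.

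Untreated CMPs had a Hox pattern of the anterior and central kind. Of the 39 genes, 20 were detected in the CMP control: 8 of 11 in cluster a, 7 of 10 in cluster b, 4 of 9 in cluster c and 1 of 9 in cluster d. By position, 5 of 8 genes of paralog groups 1 to 3 were detected, 12 of 15 of groups 4 to 8 and 3 of 16 of groups 9 to 13. Counted as probes, 22 of 44 were detected in the control, beside 56.6% of all probes. The run was unbroken in cluster a from Hoxa2 to Hoxa7 and in cluster b from Hoxb2 to Hoxb7. Hoxa9 and Hoxb9 were detected beyond it, and in cluster c Hoxc4, Hoxc5 and Hoxc6, with Hoxc12 apart from them.

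The genes that no array detected were mostly those of the posterior body. All probes of paralog groups 10, 11 and 13 were below the threshold on all 4 arrays, as were Hoxb8, Hoxc8 and Hoxd9. In cluster d, which in the limb bud and the genital tubercle patterns the digits and external genitalia, Hoxd8 alone was detected. Hoxb1 and Hoxd1 were not detected, nor were Hoxd3 and Hoxd4. In all 19 genes were detected on no array and 15 on all 4. The 19 undetected genes lay below the threshold, so in them a low level cannot be told from none.

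**Figure D1:**
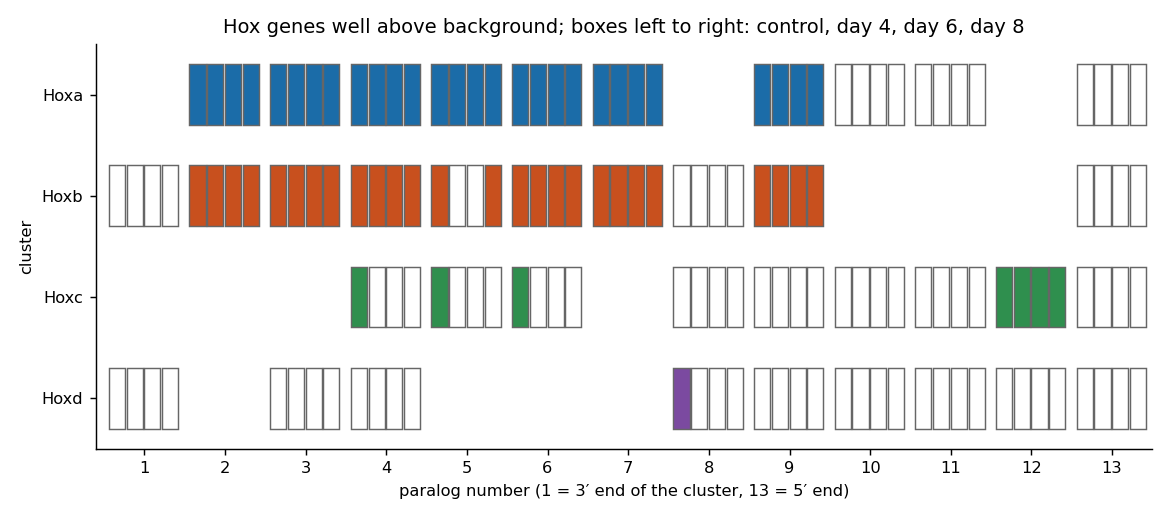
Detection of 38 of the 39 Hox genes on the array, by cluster (rows) and paralog number (columns). The 4 boxes of a gene stand for the CMP control and days 4, 6 and 8 from left to right, filled where at least 1 probe was well above background. Filled boxes run from Hoxa2 to Hoxa7 and Hoxb2 to Hoxb4 on all 4 arrays, and those of Hoxc4 to Hoxc6 and Hoxd8 are filled in the control alone.

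After transduction fewer Hox genes were detected. In the order control, day 4, day 6 and day 8 the count of genes was 20, 15, 15 and 16, and the count of probes was 22, 16, 17 and 18, beside 57.2%, 56.7% and 59.6% of all probes detected on the 3 OSKM-CMP arrays. Anterior genes (groups 1 to 3) kept their count, with 5 on every array. The count of central genes went from 12 to 7, 7 and 8, and that of posterior genes was 3 throughout. Between the control and day 8, 4 probes were lost (18.2% of those detected in the control, against 4.72% of all probes). In the same step 0 Hox probes were gained, while the detected share of all probes went from 56.6% to 59.6%. The lost probes were those of Hoxc4, Hoxc5, Hoxc6 and Hoxd8. In the clusters, a kept 8 genes on every array, b had 7, 6, 6 and 7, c had 4, 1, 1 and 1, and d had 1, 0, 0 and 0.

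A probe was counted as changed at 2-fold or more, among the probes detected on at least 1 of the 2 arrays compared. Where one side was not detected it was raised to the lowest level well above background on that array, so the change is a bound. At day 4, 7 of the 22 Hox probes tested rose and 4 fell, where 8.82% of all tested probes rose, 7.03% fell and 15.8% did either. At day 6 the counts were again 7 and 4 of 22, beside 10.2%, 8.81% and 19.0%. At day 8 they were 7 and 4 of 22, beside 12.0%, 9.12% and 21.2%. As genes, 6 rose and 4 fell of 20 tested on each day. Over all genes tested, 10.1% rose and 8.37% fell at day 4 (18.5% in all), 11.2% rose and 10.1% fell at day 6 (21.4%), and 12.2% rose and 10.7% fell at day 8 (22.9%). With the median of each array as its scale, the day 8 counts were 6 probes up and 5 down, and with normexp background correction and quantile normalization they were 5 up and 1 down (5 and 6 up at days 4 and 6, with 1 down each).

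By position, of the 6 anterior probes tested at day 8, 4 rose and 0 fell; of the 12 central probes, 2 rose and 4 fell; of the 4 posterior probes, 1 rose and 0 fell. Of the 12 central probes, those of Hoxc4, Hoxc5, Hoxc6 and Hoxd8 were tested only because the control detected them, and could move only down. Over the probes detected on all 4 arrays, the median change at day 8 was 1.39 for the 6 anterior, 0.71 for the 7 central and 0.91 for the 3 posterior ones. All probes under this filter had a median of -0.04. The filter leaves out each of the 4 Hox probes that were counted as falling, so these medians and the 0 falls in this set say nothing about falls. The median over all 22 Hox probes was 0.45, where the median over all tested probes was 0.0. The medians over the Hox probes at days 4 and 6 were 0.31 and 0.33, where all tested probes had -0.01 and -0.04. By cluster, 3 of 9 probes of a rose and 0 fell at day 8, 4 of 8 of b rose and 1 fell, 0 of 4 of c rose and 2 fell, and the 1 probe of d fell.

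**Figure D2:**
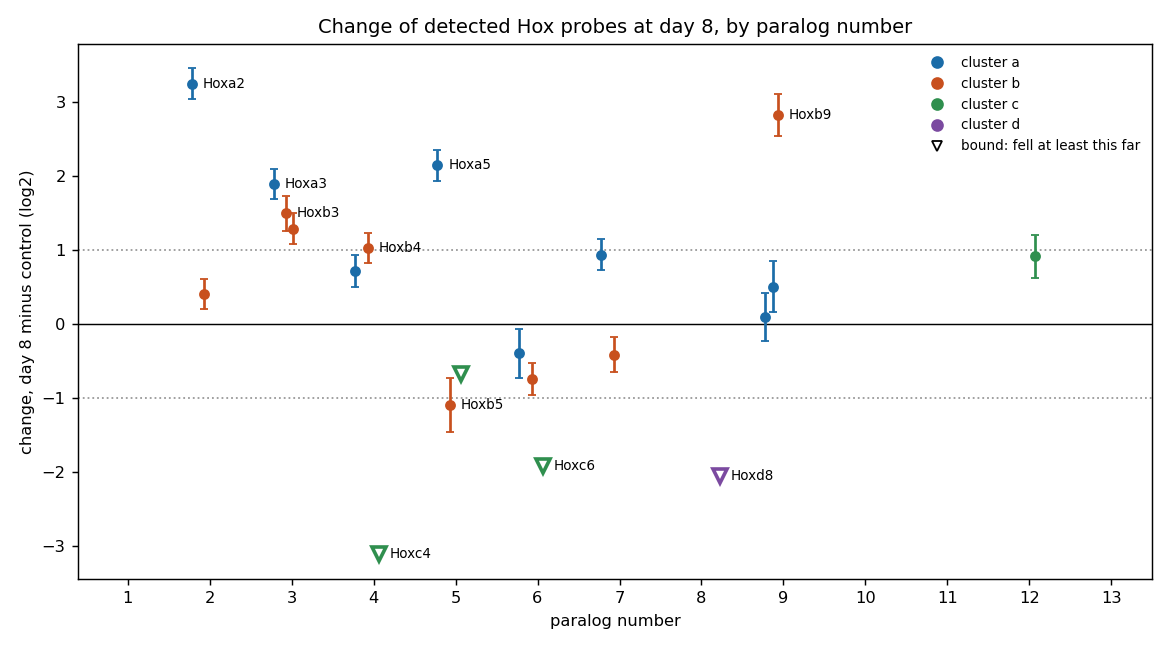
Change from the CMP control to OSKM-CMPs at day 8 (log2, vertical axis) of 21 of the 22 Hox probes tested, by paralog number and cluster. Bars are 1 SD of the error model, open triangles are bounds for probes not detected at day 8, dotted lines mark 2-fold, and genes past it are named. The rises past 2-fold lie at paralog numbers 2 to 5 and at Hoxb9, and the falls at numbers 4 to 8.

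Hoxa2, which patterns the second pharyngeal arch and the hindbrain, rose most (probe at chr6:52112595-52112654, minus strand, mm9). Its levels, in the order control, day 4, day 6 and day 8, were -2.22, 1.42, 1.20 and 1.01. The 3 OSKM-CMP arrays lay close together and far above the control, by 3.65 at day 4 and 3.24 ± 0.21 (log2, 9.44-fold) at day 8. Hoxa3, needed for the third arch, the thymus and the parathyroid, had levels of 0.84, 2.91, 3.00 and 2.73 in the same order. It rose by 1.89 ± 0.20 (3.70-fold) at day 8 (chr6:52119087-52119146).

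The middle of cluster a moved less evenly. Hoxa5, which acts in the lung, the trachea and the cervical skeleton and is expressed in adipose tissue, had levels of -1.78, 1.00, 0.50 and 0.36 (chr6:52152049-52152108). It rose by 2.78 at day 4 and by 2.14 ± 0.21 (4.41-fold) at day 8, so that the highest array was day 4. Hoxa7 had the same course at a smaller size, with levels of -1.68, -0.16, -0.73 and -0.75. It rose by 1.52 at day 4 and lay just under 2-fold at day 8, at 0.93 (1.90-fold). Hoxa4 had levels of -2.80, -2.10, -2.04 and -2.09, and its day 8 difference was 0.71, also under 2-fold. Hoxa6 and Hoxa9 were close to the detection limit and stayed there. Hoxa6 had -4.01, -4.01, -4.23 and -4.41, and the probes of Hoxa9 differed from the control by 0.09 and 0.50 at day 8.

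In cluster b the rises were smaller at the anterior end and largest at Hoxb9. Hoxb3, a hindbrain and pharyngeal gene, was read by 2 probes. The probe in the homeobox had levels of -3.38, -2.32, -2.12 and -1.88 (chr11:96207114-96207173, plus strand), and the probe at chr11:96209002-96209061 had -1.59, -0.30, -0.20 and -0.31. Both rose, by 1.49 and 1.28 at day 8, but their mean was 0.76, under 2-fold, with normexp correction. Hoxb4, known for its part in blood stem cell growth, had levels of 1.13, 2.13, 2.22 and 2.15, a change of 0.99 at day 4, just under the threshold, and of 1.02 ± 0.20 at day 8, just past it. Scaled to the median of each array it was 0.75 at day 8. Hoxb2, a hindbrain gene, had 0.34, 0.72, 0.74 and 0.73, a difference of 0.40 that did not reach 2-fold. Hoxb9, a trunk gene expressed in the thoracic region, had levels of -4.41, -1.80, -1.51 and -1.59 (chr11:96137748-96137807). It was near the detection limit in the control and rose by 2.82 ± 0.28 (7.06-fold) at day 8, or by 1.19 with normexp background correction.

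Between the rising ends of cluster b lay genes that were lower in OSKM-CMPs. Hoxb5, which takes part in enteric neural crest and vascular development, had a level of -4.03 in the control and -5.13 at day 8, and was not detected at days 4 and 6. It fell by 1.10 ± 0.36 (2.14-fold) at day 8, close to both the threshold and the detection limit, and the change was -0.31 with normexp correction. Hoxb6 had levels of -2.25, -3.13, -3.07 and -3.00. Its difference was -0.75 at day 8, under 2-fold, and -1.01 when arrays were scaled to their medians. Hoxb7 had -2.99, -3.64, -3.66 and -3.41, a difference of -0.42. Within cluster b, the genes of groups 2 to 4 and Hoxb9 thus had positive differences and those of groups 5 to 7 negative ones.

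**Figure D3:**
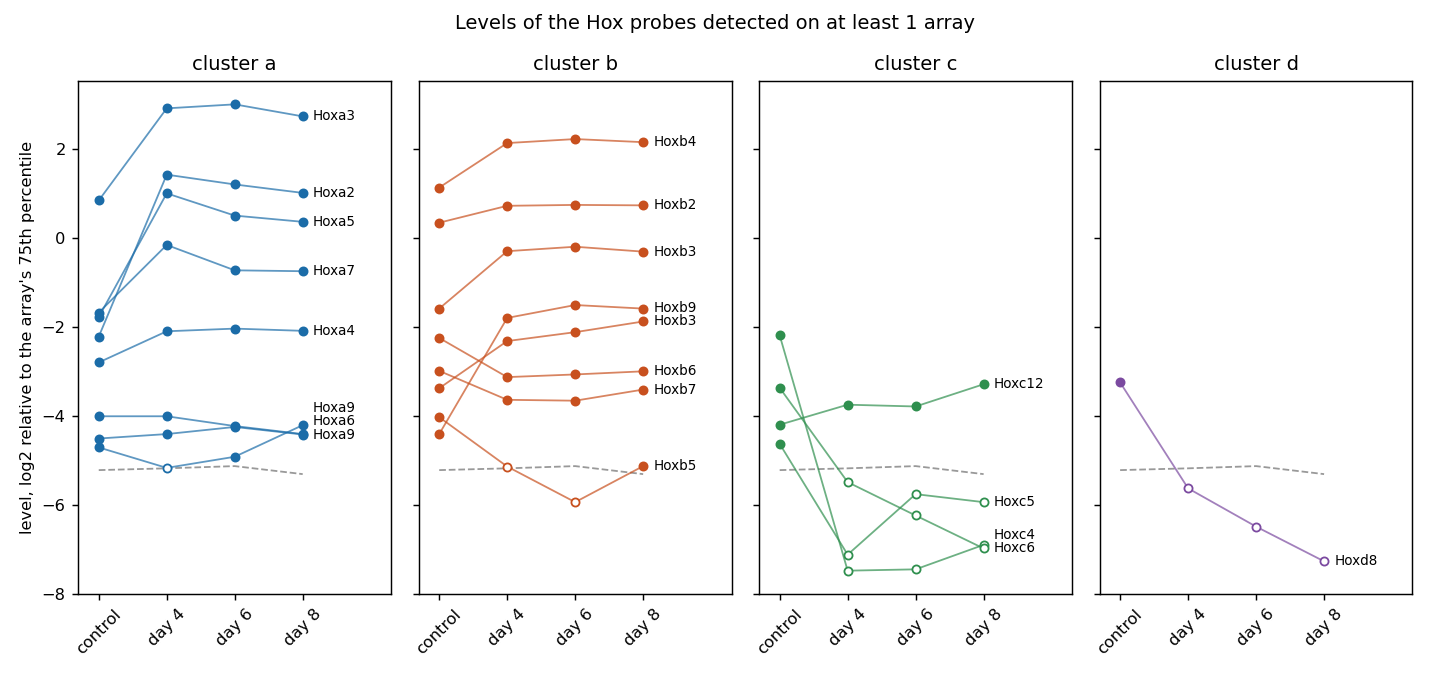
Levels of 21 of the 22 Hox probes detected on at least 1 array, by cluster (log2 relative to the 75th percentile of the array, vertical axis), in the CMP control and in OSKM-CMPs at days 4, 6 and 8. Filled points were well above background, open points were not, and the dashed line is the lowest level well above background on each array. Most filled points move more between the control and day 4 than after it, and Hoxc4, Hoxc5, Hoxc6 and Hoxd8 drop below the dashed line by day 4.

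In cluster c, the 3 central genes detected in the control were below the threshold on all later arrays. Hoxc4 had a level of -2.19 in the CMP control and was not detected on any OSKM-CMP array, a fall of at least 7.92-fold, 7.66-fold and 8.67-fold in the order of days (chr15:102867213-102867272, plus strand). Hoxc6, which acts in the thoracic trunk and the mammary gland, had -3.37 in the control and was not detected afterwards, a fall of at least 3.49-fold, 3.38-fold and 3.82-fold. Hoxc5 was detected in the control alone as well, at -4.63, but lay so close to the floor that its bound at day 8 was 1.60-fold and it was not counted as changed. Hoxc12, at the posterior end, stayed detected on all 4 arrays, while the genes on either side of it were detected on none. Its levels were -4.20, -3.75, -3.79 and -3.29, a day 8 difference of 0.91 ± 0.29 that stayed under 2-fold and was 0.13 with normexp correction. Hoxd8, the single gene of cluster d that was detected, had -3.25 in the control and was not detected later, a fall of at least 3.79-fold, 3.67-fold and 4.16-fold (chr2:74545171-74545230, plus strand). With normexp correction Hoxc4 fell by 1.33 on the log2 scale at day 8, still past 2-fold. On the same scale Hoxc6 and Hoxd8 changed by -0.66 and -0.57, under 2-fold.

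Markers of CMPs and of other cells moved over the same arrays. Of the 8 mesenchymal progenitor markers, all detected on every array, 1 rose and 3 fell at day 8, beside 12.2% and 10.7% of all genes. Ly6a rose by 2.69, while Thy1, Itgb1 and Eng changed by -1.78, -1.35 and -1.19. Of the 4 mesothelial markers, 4 were detected in the control and 3 on each later array: Wt1 fell at least 10.8-fold by day 8 and Upk3b fell by 3.10 (log2), while Msln and Krt19 rose. Their summed level, as a percent of the array's 75th percentile, was 327 in the control and 1800, 2250 and 2430 at days 4, 6 and 8. Of the 4 endothelial markers, 4 were detected in the control and 3 afterwards: Cdh5 fell at least 11.9-fold and Tek by 2.70 at day 8, whereas Pecam1 and Kdr differed by 0.10 and -0.27. The summed endothelial level was 666, 634, 656 and 601. Of the 4 adipocyte markers, 1 was detected in the control and 4 on each later array, with summed levels of 247, 1940, 12300 and 30500. Of the 6 leukocyte markers, 5 were detected in the control and 3, 4 and 4 later, with summed levels of 61.8, 85.6, 105 and 117. Among them Coro1a rose 2.18-fold at day 8 and Laptm5 was not detected on any array. Of the 4 cardiomyocyte markers, 1 was detected in the control and 3 on each later array, with Actc1 detected on none. They summed to 1190 in the control and to 449, 657 and 401 later, and Tnnt2 fell 2.68-fold at day 4 and 3.03-fold at day 8. Myl7 and Myh6, not detected in the control, were higher at day 8 by at least 2.7-fold and 1.75-fold. The cardiac markers summed to 1420 in the control and to 103, 76.9 and 76.4 later. Gata4 weighed most in the control sum, at a level of 3.72, beside -0.34 for Tbx5 and -2.58 for Mef2c. At day 8 Gata4 was lower by 5.01 (log2) and Tbx5 changed by -3.29, while Mef2c was higher by 0.71, under 2-fold. The part of these cells in the Hox changes was not tested, and in bulk RNA fewer cells of a type and less RNA per cell cannot be told apart.

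Between the OSKM-CMP arrays the Hox counts were near those of all probes. From day 4 to day 6, 0 of 17 Hox probes changed 2-fold, beside 3.13% of all tested probes (1.80% up and 1.32% down), and from day 6 to day 8, 0 of 18, beside 1.98% (1.36% up and 0.614% down). The medians of these later differences were 0.06 and -0.04. The day 4 change as a share of the day 8 change was 113% for Hoxa2, 110% for Hoxa3 and 130% for Hoxa5. The day 4 levels of these genes thus lay above those of day 8, but by less than 2-fold, and Hoxa3 was highest at day 6. The share was 92.5% for Hoxb9, 97.6% for Hoxb4 and 84.6% for Hoxb3. Between day 4 and day 6, Hoxa5 and Hoxa7 differed by -0.51 and -0.57, under 2-fold.

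Promoter sequence from RefSeq (GRCm38.p6) was held for 22 of the 39 genes, as 24 promoters, and the 250 bases before the start were searched on both strands. The motifs were chosen for the 4 factors and for Hox proteins with their partners: the octamer of Oct4 (ATGCAAAT), Sox sites (ACAAAG or ACAATG), a Klf site (CCCACCC), the Myc E-box (CACGTG) and a Hox-Pbx site (TGATNNAT). The promoters of Hoxa2, of Hoxa7, which rose past 2-fold at day 4 alone, and of 2 genes that fell are shown, with matches in capitals.
Hoxa2: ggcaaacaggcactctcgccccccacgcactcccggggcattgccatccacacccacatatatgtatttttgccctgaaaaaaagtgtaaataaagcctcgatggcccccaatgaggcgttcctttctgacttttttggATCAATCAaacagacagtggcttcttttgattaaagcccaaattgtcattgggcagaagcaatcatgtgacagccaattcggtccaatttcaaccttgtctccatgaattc
Hoxa7: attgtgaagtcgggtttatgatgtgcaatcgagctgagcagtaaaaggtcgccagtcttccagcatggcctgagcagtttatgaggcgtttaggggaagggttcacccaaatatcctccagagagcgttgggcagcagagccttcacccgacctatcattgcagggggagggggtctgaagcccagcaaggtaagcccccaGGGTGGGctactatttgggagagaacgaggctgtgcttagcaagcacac
Hoxc4: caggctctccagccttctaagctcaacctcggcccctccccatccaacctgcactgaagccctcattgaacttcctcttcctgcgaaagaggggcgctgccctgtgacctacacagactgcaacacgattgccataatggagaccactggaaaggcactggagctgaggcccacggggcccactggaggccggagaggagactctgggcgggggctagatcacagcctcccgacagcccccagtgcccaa
Hoxd8: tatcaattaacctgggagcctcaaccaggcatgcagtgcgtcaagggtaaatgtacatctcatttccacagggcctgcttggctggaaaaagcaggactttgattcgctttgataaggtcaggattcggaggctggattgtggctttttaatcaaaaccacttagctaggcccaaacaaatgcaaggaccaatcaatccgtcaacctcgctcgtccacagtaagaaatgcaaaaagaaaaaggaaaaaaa
These are chr6:52164832-52165081 and chr6:52218574-52218823 on the minus strand, and chr15:103034145-103034394 and chr2:74704365-74704614 on the plus strand. The Hoxa2 promoter held 1 Hox-Pbx match and that of Hoxa7 held 1 Klf match, while those of Hoxc4 and Hoxd8 held none of the motifs. Of the other genes that rose, Hoxa3 had 1 Sox match before the start of its listed transcript, and Hoxa5 and Hoxb4 had none. Over the 24 Hox promoters, the octamer was in 0, Sox letters in 5, the Klf site in 6, the E-box in 4 and the Hox-Pbx site in 4. Over all 32851 promoters of the table, the shares were 1.60%, 25.2%, 15.8%, 6.02% and 7.68%. A match is a string of letters and not a bound site.

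Hox partners of the TALE class were present throughout, and 4 of 9 changed. All 9 were detected on every array, and at day 8, 3 rose and 1 fell, where 12.2% of all genes rose and 10.7% fell. Meis1, a partner of Hox proteins, had levels of 3.42, 5.08, 4.76 and 4.62 and rose by 1.20 ± 0.20 at day 8. Meis2 had 2.96, 4.40, 4.22 and 4.08 and rose by 1.12. Like Hoxa5 and Hoxa7, both were highest at day 4. Pknox2, a relative of the Meis genes, fell by 1.52, from 2.58 in the control to 1.21, 1.03 and 1.07. Scaled to array medians, 1 of the 3 rises stayed past 2-fold. The other 5 members differed by less than 2-fold, and the median of the list was 0.06.

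The retinoic acid pathway, which feeds the 3' ends of the clusters in the embryo, changed in both directions. At day 8, 3 of the 15 detected genes rose and 4 fell, beside 12.2% and 10.7% of all genes, with a median of 0.04. The enzymes that make retinoic acid fell together: the day 8 change was -4.59 for Aldh1a3, -2.71 for Aldh1a2 and -2.70 for Aldh1a1. Their levels had dropped by day 4, when Aldh1a2 went from 4.39 to 1.63. Cyp26b1, which degrades retinoic acid, fell 2.82-fold, while Crabp2, which carries it to the nucleus, rose by 3.44 (10.9-fold). Dhrs3, which turns retinaldehyde back to retinol, rose by 1.63, and Rdh10, which does the reverse step, by 1.07. The receptors Rara, Rarb, Rarg, Rxra, Rxrb and Rxrg did not reach 2-fold as means of their probes. The 2 probes of Rxrg disagreed at day 8, at -0.34 and 1.82. Crabp1, picked here after its values were seen, had levels of -1.79, 1.45, -0.04 and -1.75, a rise at day 4 that was gone by day 8.

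Few regulators of Hox chromatin passed 2-fold. Of 27 Polycomb genes, all detected on all 4 arrays, 0 rose and 2 fell at day 8, where 12.2% of all genes rose and 10.7% fell, and the median was -0.14. Phf19, a Polycomb partner that guides the complex to CpG islands, had levels of 0.88, -0.77, -1.63 and -2.05 and fell by 2.94. Ezh2, the methyltransferase that places the H3K27 mark, had 1.90, 1.36, 1.13 and 0.65 and fell by 1.25. From day 4 to day 6 they differed by -0.86 and -0.23, and from day 6 to day 8 by -0.42 and -0.48, all under 2-fold. Mtf2 and Bmi1 differed by 0.97 and 0.82, short of 2-fold. Of 11 Trithorax genes and H3K27 demethylases, 0 rose and 0 fell, the largest differences being 0.86 for Ash1l and 0.72 for Kdm6a. Of the Cdx genes, which drive posterior Hox genes in the embryo, and the other ParaHox genes, 1 of 6 was detected (Cdx1, in OSKM-CMPs alone and near the floor).

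Other transcription factors with a positional pattern changed in both directions. Of the 36 detected, 10 rose and 10 fell at day 8, beside 12.2% and 10.7% of all genes, with a median of 0.40. Among the rises was Hand1, whose 2 probes disagreed, at -0.48 and 3.23. Irx6 had levels of -4.69, -1.09, -0.68 and -0.77 and rose by 3.92 ± 0.34, and Irx5, its neighbour in an Iroquois cluster, rose by 3.41 ± 0.26. Tbx20, a heart factor, fell by 5.67 (50.9-fold) and Six2 fell at least 10.3-fold. The cardiac factors Tbx5 and Nkx2-5, also in this list, had day 8 changes of -3.29 and -3.03. As with the Hox genes, Irx5 and Irx6 made most of their rise by day 4, by 3.41 and 3.60.

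**Figure D4:**
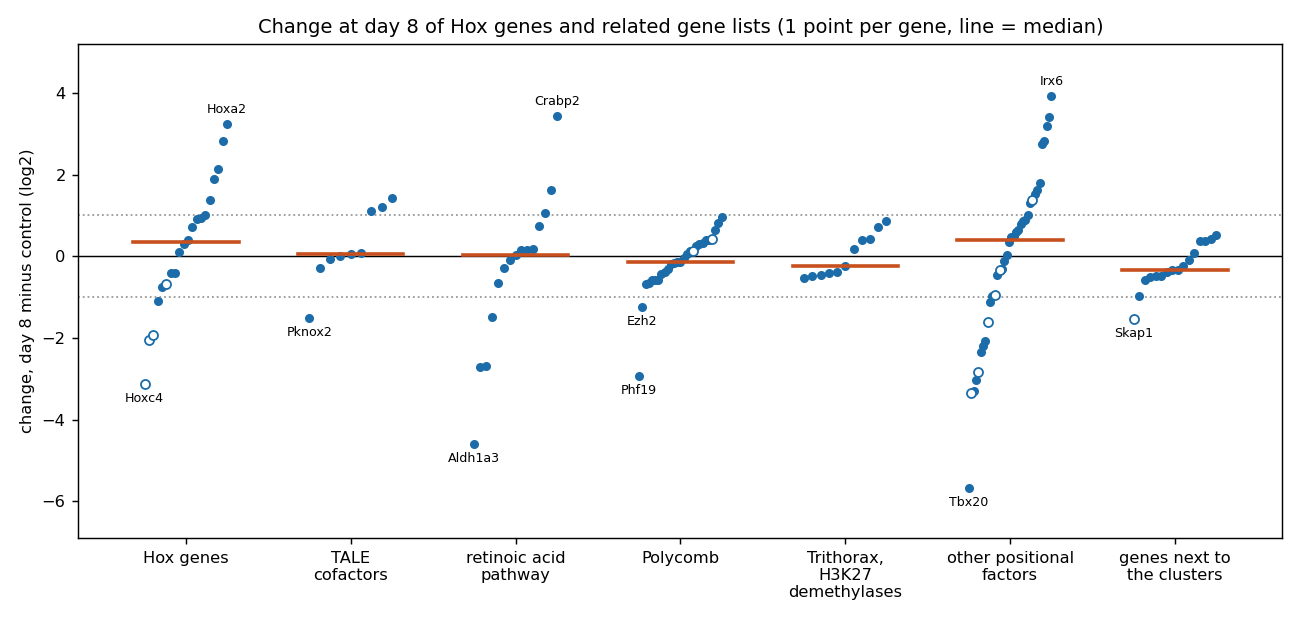
Change from the CMP control to day 8 (log2, vertical axis) of the detected Hox genes and 6 related gene lists. Each point is a gene (the mean of its detected probes), open points are or include bounds, lines are medians and dotted lines mark 2-fold. The 20 Hox genes spread from Hoxc4 at -3.12 to Hoxa2 at 3.24, while the Polycomb points other than Phf19 and Ezh2 and all 11 Trithorax points lie between the dotted lines.

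Genes that flank the clusters were also read. Of 16 detected neighbours, 0 rose and 1 fell at day 8, beside 12.2% and 10.7% of all genes, with a median of -0.33. The 1 that fell was Skap1, beside cluster b, whose probes ranged from -3.59 to 0.51 and so disagreed. Hnrnpa1, beside cluster c, differed by -0.97, Lnpk, beside cluster d, by -0.58, and Calcoco1 by 0.52. Evx1, at the 5' end of cluster a, was not detected, and Evx2, at that of cluster d, differed by -0.09. Of 4 non-coding transcripts of the clusters on the array, 1 was detected: Hoxa11os, which runs antisense to Hoxa11, had levels of -3.42, -4.52, -4.28 and -4.00, while Hoxa11 itself was not detected on any array. Its difference was -1.10 at day 4 and -0.57 at day 8.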

How the data were processed

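The authors hybridised Cy3-labelled RNA to SurePrint G3 Mouse GE arrays and deposited Feature Extraction files with a background-subtracted processed intensity, its error and flags per spot (version 10.7.3.1 in the file headers, 9.5.3 in the submitters' processing notes). The deposited value table, normalized in GeneSpring, holds log2 values equal to those used here up to a constant for each array. Here, control and outlier spots were left out (3671 and 87 to 106 per array), log2 processed signals were averaged per probe, and each array's 75th percentile (a signal of 388.5 to 410.9) was subtracted. A probe was detected where over 50% of its spots were well above background. The number of arrays, 1 per group, limits the precision, and no test was made. Genes took the mean of their detected probes, and names came from the scanner files and RefSeq (GRCm38.p6). Probe positions are those of the files, on mm9. The Hox genes named with levels are those that were detected on all 4 arrays or changed at least 2-fold, and Hoxc5, added after its values were seen. Others are named only as detected or not. Of each other list, up to 4 genes with the largest day 8 change were named, beside genes that the text needed, which were chosen after their values were seen. The Hox genes and the lists were chosen with earlier results of these data known. Single results for some genes and sequences are not reported here, though the counts include them. The procedure was tested on simulated data. Alternatives were the array median, quantile normalization, normexp (offset 50) with quantile normalization (limma 3.58.1, R 4.3.3), the authors' values, other filters, thresholds and flags. Python 3.11.15, numpy 2.4.6, pandas 2.3.3 and matplotlib 3.10.9 were used.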

Additional observations from a re-analysis of the deposited data

How the results depend on the processing

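No paired analysis was possible because no group of arrays had a second member. Counts of Hox rises stayed within 1.5 times under every other setting tried except the 3-fold threshold, which left 4, 4 and 4 at days 4, 6 and 8. Falls depended more on how dim probes were treated: 1, 1 and 1 with normexp and quantile normalization, 0, 0 and 0 with probes detected on all 4 arrays, and 7, 7 and 8 without a filter. The positive-and-significant flag detected 32 Hox probes in the control and 25, 29 and 28 at those days. Between OSKM-CMP arrays, 1 probe rose from day 4 to day 6 without a filter, and 1 from day 6 to day 8 without a filter or at 1.5-fold. The array median shifted all probes by -0.15, -0.17 and -0.26, and the Hox medians were then 0.16, 0.20 and 0.18 (-0.17 from day 6 to day 8, where all probes had -0.12). Hox medians were 0.21 at day 6 and 0.31 at day 8 with quantile normalization, 0.14, 0.08 and 0.12 with normexp, and 0.06, 0.07 and -0.06 without a filter. They were 0.85, 0.85 and 0.92 with probes detected on all 4 arrays, a filter that leaves out the Hox probes counted as falling. Lists at day 8 moved as follows. With the array median, TALE cofactors had 1 rise and a median of -0.21, the medians of ParaHox, retinoic acid, Polycomb and Trithorax genes were 0.0, -0.23, -0.41 and -0.51, those of positional factors and non-coding transcripts 0.13 and -0.84, and neighbouring genes had 2 falls and a median of -0.60. With quantile normalization, the medians of ParaHox, Polycomb, Trithorax, positional and non-coding genes were 0.0, -0.03, -0.08, 0.15 and -0.84, and 1 Polycomb gene rose. With normexp, the medians of ParaHox, Trithorax, positional and non-coding genes were 0.11, -0.07, 0.02 and -0.27, and 0 neighbouring genes fell. The causes were not tested.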
